A study of Mus musculus with 12 samples.

Results

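The genes described here handle zinc in the mouse prostate: 5 importers of the Slc39a (ZIP) family, 3 exporters of the Slc30a (ZnT) family and the metallothioneins Mt1 and Mt2, 10 of the 18194 genes that the arrays measured under a single symbol. They were chosen by name. Each was read by its brightest probe set (the group of short probes that measures a transcript), taken as the mean over the 12 arrays. The 10 genes had 20 probe sets, with more than 1 for 6 genes.

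ZIP proteins move zinc into the cytosol, from outside the cell or out of organelles, and ZnT proteins move it the other way, out of the cell or into vesicles and the Golgi. Metallothioneins are small cysteine-rich proteins that bind zinc and other metals, and their genes are switched on by zinc through the factor MTF-1, which binds metal response elements in their promoters. The prostate is known for the high zinc of its epithelium and secretion, which in rodents is a feature of the lateral part of the gland.

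Total RNA of ventral or lateral prostate was read on single-colour Affymetrix arrays, with 3 arrays in each of 4 groups, all from mice of 16 weeks of age. The groups were ventral prostate of Med1 knockouts (MT), ventral prostate of wild type (WT), lateral prostate of mice labelled as Med1 knockouts, and lateral prostate of wild type. Med1 belongs to Mediator, a large coactivator complex through which transcription factors such as nuclear receptors reach RNA polymerase II. The labels do not say how Med1 was knocked out, in which cells, or if each array stands for its own mouse. The p-values therefore reflect the scatter of these arrays alone, and that scatter could be technical.

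Values are log2 RMA signals, in which 1 unit is a factor of 2, and array medians lay between 6.39 and 6.43 in ventral and between 6.05 and 6.06 in lateral samples. Med1 averaged 8.86 ± 0.16 in ventral knockouts and 9.43 ± 0.12 in ventral wild type (SD, n = 3 each), and the difference was -0.57 ± 0.12 (SE; limma adjusted p = 0.0119). Laterally it averaged 8.39 ± 0.049 in arrays labelled knockout and 8.52 ± 0.26 in wild type (limma adjusted p = 0.622), so these arrays are called labelled knockout throughout. Of the 7 Med1 probe sets, 4 were called lower in the ventral lobe and 0 in the lateral lobe. The deleted part of the gene is not known here, so a probe set may not read it. Luminal keratins were high in every group, with Krt8 group means of 11.67 to 12.37. Spink1, a ventral secretory product, read 12.54 to 12.75 in lateral arrays labelled knockout, 10.96 to 13.38 in lateral wild type, 13.99 to 14.09 in ventral knockouts and 14.07 to 14.11 in ventral wild type. Seminal vesicle genes were read at a mean of 7.73 to 9.26 in lateral arrays labelled knockout, of 11.41 to 11.50 in lateral wild type, of 4.25 to 4.60 in ventral knockouts and of 3.81 to 5.52 in ventral wild type, where the highest array was WT replicate 3. In bulk tissue, fewer cells of a type and less RNA per cell cannot be told apart.

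Knockout against wild type moved few of the 10 genes. In the ventral lobe the zinc exporter Slc30a1 rose and the Golgi transporter Slc30a7 fell, and in the lateral lobe the importer Slc39a6 fell. These are 2 of 10 genes in the ventral lobe, where 9.08% of all genes passed (limma, Benjamini-Hochberg adjusted p under 0.05), and 1 of 10 in the lateral lobe, where 5.03% passed, so the shares lie near those of the whole array. The median difference was -0.072 over the 10 genes and -0.02 over all genes in the ventral lobe, and -0.20 against -0.0025 in the lateral lobe. Knockout and wild-type arrays did not overlap for 4 of 10 genes in the ventral lobe (29.5% of all genes) and for 7 of 10 in the lateral lobe (26.9% of all genes). Of the 10 lateral differences 9 were negative, against 9199 of all 18194 genes.

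**Figure D1:**
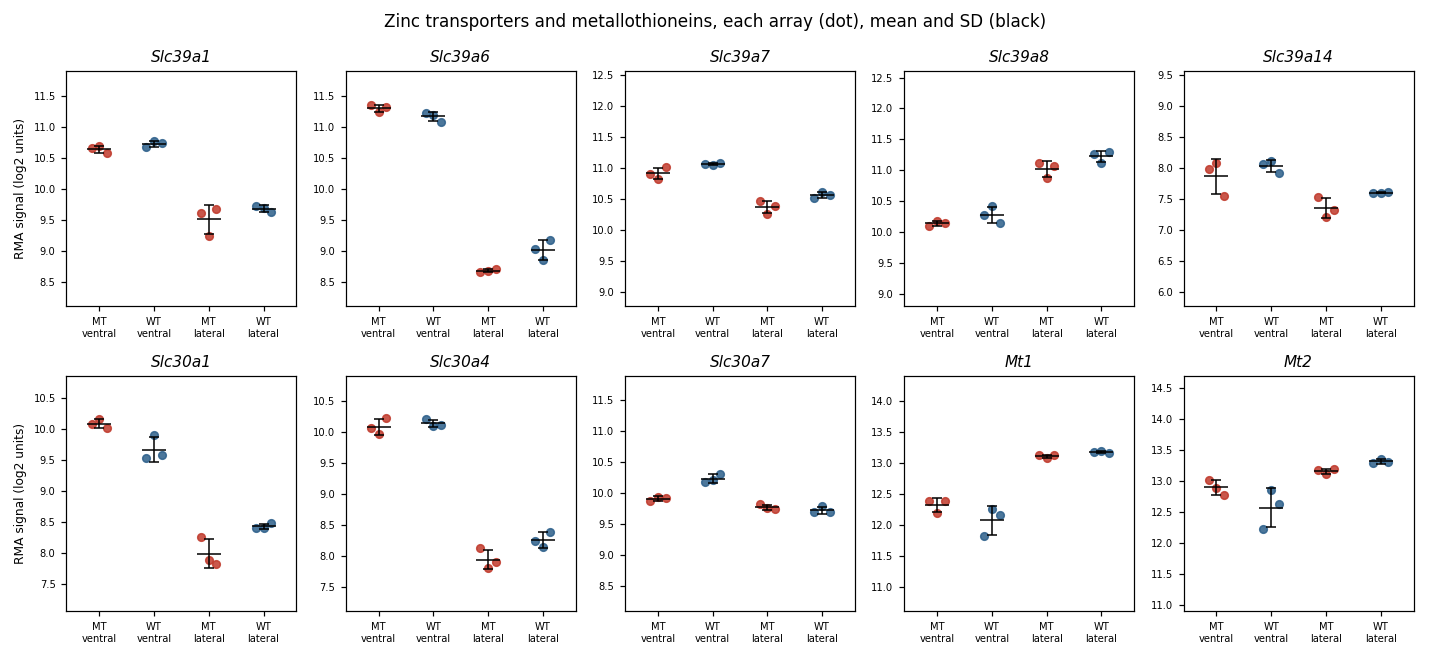
RMA signal (log2 units) of the 10 zinc genes in each array, for knockout (MT, red) and wild type (WT, blue) in the ventral and lateral lobe; dots are arrays, and black bars are the mean and SD of 3 arrays. Every panel spans the same number of log2 units. Values are as deposited, where lateral arrays lie lower over all genes, so the lobe gap of Slc39a6 in knockout-labelled samples, 2.19 after centring, looks wider here, and Slc39a7, Slc39a14 and Slc30a7 have no settled gap.

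Among the exporters, Slc30a1 (ZnT1), which pumps zinc out across the plasma membrane and is itself a target of MTF-1, rose in ventral knockouts, and its genotype effect differed between the lobes. Ventral knockouts read 10.07, 10.15 and 10.01, against 9.52, 9.90 and 9.57 in ventral wild type. All 3 knockout arrays lay above all wild-type arrays, a difference of 0.41 ± 0.12 (SE), or 1.33-fold, at a limma adjusted p of 0.04999, just past the threshold. Lateral arrays labelled knockout read 8.25, 7.88 and 7.82, against 8.39, 8.41 and 8.48 in lateral wild type. Here all 3 lay below wild type, by 0.44 ± 0.12, and the difference did not pass (limma adjusted p = 0.0542). The difference between the lobes in the genotype effect was -0.86 ± 0.17 (lateral minus ventral; limma adjusted p = 0.00688), and this call held in 20 of 20 alternative analyses, with adjusted p from 0.0017 to 0.0479. The ventral rise on its own missed the threshold with arrays centred on their medians (0.37, limma adjusted p = 0.0674). It passed in 6 of 21 alternatives, and was lost in 9 of the 12 in which 1 array was left out, most of all without WT_VP replicate 1 (0.34, limma adjusted p = 0.171) or WT_VP replicate 3 (0.37, 0.160). A second, dimmer probe set of Slc30a1 gave 0.30 ventrally and -0.10 laterally, and its difference between the lobes of -0.40 did not pass (limma adjusted p = 0.109).

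Slc30a7 (ZnT7) loads zinc into the early secretory pathway, where enzymes such as alkaline phosphatases receive it. It read 9.87, 9.94 and 9.93 in ventral knockouts and 10.18, 10.22 and 10.32 in ventral wild type, without overlap. The fall of 0.32 ± 0.076 (SE; limma adjusted p = 0.0176) passed in 16 of 21 alternatives. Laterally it read 9.82, 9.76 and 9.74 in arrays labelled knockout and 9.69, 9.79 and 9.70 in wild type, which overlap. The lobes differed in the genotype effect by 0.37 ± 0.11 (limma adjusted p = 0.0469), a call that 16 of 20 alternatives lost, among them each of the 12 in which 1 array was left out (limma adjusted p from 0.0528 to 0.113). Its second probe set gave -0.15 ventrally and -0.18 laterally, neither past the threshold. Without WT_VP replicate 3 the ventral fall was 0.28 (limma adjusted p = 0.0809), and without MT_VP replicate 1 it was 0.30 (0.0611).

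Slc30a4 (ZnT4), a transporter of endosomal vesicles whose loss in the lethal milk mouse lowers zinc in milk, read 10.06, 9.97 and 10.23 in ventral knockouts and 10.21, 10.11 and 10.11 in ventral wild type, with overlap. Laterally it read 8.13, 7.82 and 7.90 in arrays labelled knockout and 8.25, 8.14 and 8.40 in wild type. The lateral groups did not overlap, and the difference of -0.32 ± 0.10 did not pass (limma adjusted p = 0.104).

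Among the importers, Slc39a6 (ZIP6, also called LIV-1), a plasma membrane protein studied as an oestrogen-regulated gene of breast epithelium, was the gene called in the lateral lobe. It read 8.66, 8.67 and 8.71 in lateral arrays labelled knockout, against 9.03, 8.85 and 9.17 in lateral wild type, a fall of 0.34 ± 0.090 (SE; limma adjusted p = 0.0456). The groups did not overlap, but the call passed in 4 of 21 alternatives and was lost in 10 of the 12 in which 1 array was left out (limma adjusted p up to 0.201, without WT_LP replicate 3), and the mean over its 4 probe sets gave -0.022 (limma adjusted p = 0.901). In the ventral lobe it read 11.35, 11.24 and 11.32 in knockouts and 11.23, 11.20 and 11.09 in wild type, a difference of 0.13 ± 0.090 (limma adjusted p = 0.399). The difference between the lobes, -0.47 ± 0.13 (limma adjusted p = 0.0348), passed in 5 of 20 alternatives, and over the mean of its probe sets it was -0.057 (0.767).

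By their brightest probe sets the other importers did not pass in either lobe. Slc39a1 (ZIP1), the importer most often linked to zinc uptake in human prostate, read 10.66, 10.68 and 10.58 in ventral knockouts and 10.67, 10.77 and 10.74 in ventral wild type. Its lateral values were 9.61, 9.23 and 9.67 in arrays labelled knockout and 9.73, 9.69 and 9.62 in wild type, and the groups overlapped in both lobes, with limma adjusted p of 0.655 and 0.390. Slc39a7 (ZIP7), which releases zinc from the endoplasmic reticulum, lay lower without overlap in both lobes. It averaged 10.91 ± 0.093 in ventral knockouts and 11.06 ± 0.011 in ventral wild type (SD, n = 3 each; limma adjusted p = 0.279). Laterally it averaged 10.37 ± 0.0995 in arrays labelled knockout and 10.57 ± 0.050 in wild type (SD, n = 3 each; limma adjusted p = 0.194).

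Slc39a8 (ZIP8), which carries manganese and cadmium as well as zinc, differed by -0.14 ± 0.095 ventrally and -0.20 ± 0.095 laterally, neither past the threshold (limma adjusted p = 0.403 and 0.271). Both of its probe sets lay lower in ventral knockouts, by unlike amounts, and their mean gave -0.36, which passed (limma adjusted p = 0.0228). The dimmer one read 6.49, 6.42 and 6.23 in ventral knockouts, against 6.85, 7.13 and 6.92 in ventral wild type, and passed as lower by 0.58 when every probe set was tested by itself (limma adjusted p = 0.0094). Slc39a14 (ZIP14), a carrier of zinc, manganese and non-transferrin iron, differed by -0.17 ± 0.13 ventrally and -0.25 ± 0.13 laterally (limma adjusted p = 0.458 and 0.307). Its 4 probe sets ran from -0.17 to -0.049 ventrally and from -0.26 to 0.25 laterally.

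**Figure D2:**
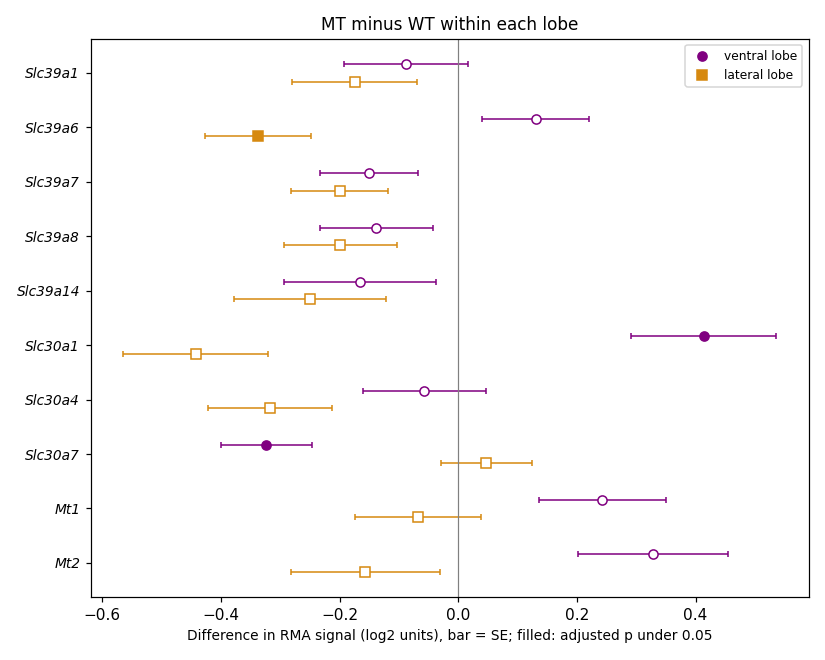
Knockout minus wild type (log2 units, bars are SE) for the 10 genes in the ventral (circles) and lateral (squares) lobe; filled symbols passed the test. Slc30a1 lies at 0.41 ventrally and -0.44 laterally, while Slc39a1, Slc39a7, Slc39a8, Slc39a14 and Slc30a4 lie below 0 in both without passing.

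The metallothioneins were among the brightest probe sets, Mt1 at percentile 98.9 and Mt2 at percentile 99.5 of all probe sets in the ventral lobe, and at 99.8 and 99.9 in the lateral lobe. Mt1 read 12.38, 12.18 and 12.38 in ventral knockouts and 11.81, 12.26 and 12.15 in ventral wild type, which overlap (difference 0.24 ± 0.11, SE; limma adjusted p = 0.176). Mt2 read 13.02, 12.90 and 12.78 in ventral knockouts and 12.23, 12.85 and 12.62 in ventral wild type, which also overlap (0.33 ± 0.13; limma adjusted p = 0.123). In each gene WT_VP replicate 1 was the lowest of the 6 ventral arrays. Without WT_VP replicate 1 the ventral difference was 0.11 for Mt1 and 0.16 for Mt2 (limma adjusted p = 0.552 and 0.416). Without WT_VP replicate 2 that of Mt2 was 0.47 and passed (limma adjusted p = 0.0327), while over all 21 alternatives that value ranged from 0.0327 to 0.416.

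In the lateral lobe Mt1 read 13.12, 13.08 and 13.12 in arrays labelled knockout and 13.17, 13.19 and 13.17 in wild type. Mt2 read 13.18, 13.11 and 13.19 in arrays labelled knockout and 13.29, 13.36 and 13.30 in wild type. Neither gene overlapped between the genotypes there, and neither passed (differences -0.068 and -0.16; limma adjusted p = 0.777 and 0.538), and with quantile normalization over all 12 arrays the Mt1 difference was 0.0058. At this brightness array signal can saturate, which RMA values do not mark. A dimmer Mt1 probe set gave 0.43 ventrally and -0.34 laterally, neither past the threshold. The genotype effect did not differ between the lobes past the threshold for Mt1 (-0.31 ± 0.15, limma adjusted p = 0.215) or Mt2 (-0.48 ± 0.18, 0.108). With each lobe's mean taken off, Mt1 and Mt2 correlated at r = 0.90 over the 12 arrays, Mt2 and Slc30a1 at 0.75, and Mt1 and Slc30a1 at 0.62. These arrays share genotype groups and, as it appears, normalization runs by lobe. Transcripts of Mt1 and Mt2 are alike in sequence, so their probes may read both in part.

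Metal response elements have been studied in the promoters of Mt1, Mt2 and Slc30a1 in mouse, and the 250 bases before the start site are shown for Mt2, which has the most matches, for that reason (RefSeq, build GRCm38.p6, plus strand, 5′ to 3′). Capitals mark matches to the element's core, TGCACNC or TGCGCNC, on either strand.
Mt2, chr8:94172368-94172617: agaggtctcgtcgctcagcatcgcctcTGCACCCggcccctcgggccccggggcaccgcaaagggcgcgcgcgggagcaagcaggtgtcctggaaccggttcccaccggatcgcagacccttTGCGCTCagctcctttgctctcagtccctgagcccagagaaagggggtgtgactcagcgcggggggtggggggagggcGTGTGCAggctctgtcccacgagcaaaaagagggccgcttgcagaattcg
The window of Mt1 overlaps the annotated span of its gene, and the windows of Mt1 and Slc30a1 are not printed. The Mt1 window held 1 match, which begins 23 bases before the start site that the window ends at. That start site lies inside the annotated span of Mt1, which begins at 94178883 on chromosome 8. The Mt2 window held 3, beginning 223, 128 and 50 bases before the Mt2 start site, the last one on the minus strand. The Slc30a1 window held 1, on the minus strand and 43 bases before the start. No matches overlapped. At least 1 match stood in 21.4% of all 32851 windows of this length and at least 3 in 1.26%. Of the 9 windows that the table gives for 8 of the 10 genes, 5 held a match. A match describes letters, not a bound site.

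The remaining zinc genes were taken from a list of 21, of other ZIP and ZnT transporters, Mt3 and Mt4, the sensor factor Mtf1, the zinc receptor Gpr39 and Tmem163. In the ventral lobe 2 rose, 1 fell and 18 did not pass, against 5.88% higher and 3.2% lower over all genes. With arrays centred on their medians, 861 genes of all were higher and 926 lower in the ventral lobe, against 1069 and 583 on deposited values. The median difference of the 21 genes was -0.081. Slc30a2 (ZnT2), which fills secretory vesicles with zinc and is known for zinc secretion into milk, fell to 5.58, 5.92 and 5.46 in ventral knockouts, against 7.02, 7.43 and 7.90 in ventral wild type. Every knockout array lay more than 1 unit below every wild-type array, a fall of 1.80 ± 0.18 (SE), or 3.47-fold, at a limma adjusted p of 5.28e-05, and it passed in 21 of 21 alternatives. WT_VP replicate 3, the highest wild-type array, is also the ventral wild-type array with the most seminal vesicle signal, and without it the fall was 1.57 (limma adjusted p = 1.28e-04).

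Slc39a4 (ZIP4), the importer of dietary zinc in the gut, rose to 6.80, 6.70 and 6.61 in ventral knockouts, against 6.28, 6.39 and 6.32 in ventral wild type (0.37 ± 0.091; limma adjusted p = 0.0209). Slc39a10 (ZIP10), a plasma membrane importer related to ZIP6, rose to 8.10, 8.17 and 8.14 in ventral knockouts, against 7.67, 7.92 and 7.62 in ventral wild type (0.40 ± 0.10; limma adjusted p = 0.0277). Neither overlapped between the genotypes. Without WT_VP replicate 3 both missed the threshold (limma adjusted p = 0.0673 and 0.112), as they did without WT_VP replicate 1 (0.0765 and 0.0961) and without MT_VP replicate 1 (0.0754 and 0.0573). Slc39a10 also missed it without MT_VP replicate 2 (0.0614) and without MT_VP replicate 3 (0.0659). The mean over the 2 probe sets of Slc39a10 gave 0.11 (limma adjusted p = 0.608).

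In the lateral lobe 1 of the 21 fell, 0 rose and 20 did not pass, against 3.42% lower and 1.62% higher over all genes (622 and 294 genes, or 513 and 409 with arrays centred). Slc39a10 fell to 6.34, 6.64 and 6.30 in arrays labelled knockout, against 6.93, 6.95 and 7.00 in lateral wild type. The groups did not overlap, and the fall of 0.53 ± 0.10 (limma adjusted p = 0.00772) passed in 21 of 21 alternatives, none of which reads the second Slc39a10 probe set alone. That probe set gave -0.37 laterally (limma adjusted p = 0.317), -0.18 ventrally, against the direction of the brighter one, and -0.19 for the difference between the lobes (0.696). Slc39a4 read 7.21, 7.12 and 7.35 in arrays labelled knockout and 7.53, 7.47 and 7.67 in lateral wild type, a difference of -0.33 ± 0.091 that did not pass (limma adjusted p = 0.0551). Slc30a2 read 9.38, 9.05 and 9.38 in arrays labelled knockout and 9.52, 9.71 and 9.47 in lateral wild type, and this difference also missed the threshold (-0.29 ± 0.18; limma adjusted p = 0.417).

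The genotype effect differed between the lobes for 3 of the 10 genes and for 4 of the 21, against 9.31% of all genes, 2.8% positive and 6.51% negative (509 positive and 1184 negative, or 987 and 901 with arrays centred). For the 4 of the list this call held in 20 of 20 alternatives, though not for the second probe set of Slc39a10. The lateral minus ventral effect was 1.50 ± 0.26 for Slc30a2 (limma adjusted p = 0.00273), -0.70 ± 0.13 for Slc39a4 (0.00392) and -0.93 ± 0.15 for Slc39a10 (0.00129). For Slc30a10 (ZnT10), known mainly as an exporter of manganese, it was 1.79 ± 0.37 (limma adjusted p = 0.0086). Slc30a10 read 6.73, 6.36 and 7.35 in ventral knockouts and 7.29, 7.55 and 8.25 in ventral wild type, which overlap. Laterally it read 7.14, 7.38 and 6.85 in arrays labelled knockout and 6.12, 6.57 and 5.96 in wild type, without overlap. Neither lobe passed for this probe set (limma adjusted p = 0.054 and 0.0679). Its second probe set, tested with every probe set by itself, passed in both, at -1.12 in the ventral (limma adjusted p = 0.00563) and 0.91 in the lateral lobe (0.0255).

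**Figure D3:**
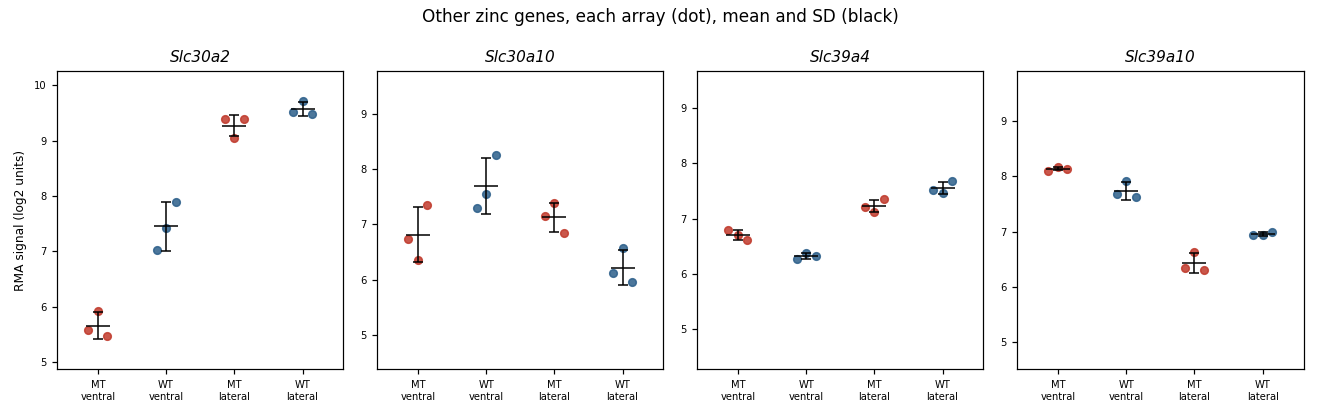
RMA signal (log2 units) of Slc30a2, Slc30a10, Slc39a4 and Slc39a10 in each array, with knockout (MT, red) and wild type (WT, blue) in both lobes; black bars are the mean and SD of 3 arrays. Slc30a2 averages 5.66 in ventral knockouts and 7.45 in ventral wild type, and Slc39a10 is above wild type in ventral knockouts and below it in lateral arrays labelled knockout.

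Against wild type of the same lobe, stromal and basal epithelial markers averaged higher in ventral knockouts and lower in lateral arrays labelled knockout. The values of Slc30a1, Slc39a4 and Slc39a10 did so too. In the ventral lobe 6 of 9 smooth muscle genes and 6 of 9 fibroblast genes rose and 0 of either fell. The mean level of the smooth muscle list was 10.46 to 10.68 in ventral knockouts and 9.83 to 10.12 in ventral wild type, and that of the fibroblast list 9.57 to 9.70 and 9.01 to 9.29. In the lateral lobe 3 of 9 smooth muscle and 5 of 9 fibroblast genes fell and 0 rose. Their means were 10.77 to 11.08 (smooth muscle) and 8.76 to 8.95 (fibroblast) in arrays labelled knockout, against 11.27 to 11.40 and 9.27 to 9.35 in lateral wild type. Of 4 basal epithelial genes 0 passed in the ventral lobe, and 1, Krt5, fell in the lateral lobe. The mean level of the basal list was 8.29 to 8.30 in ventral knockouts and 7.94 to 8.11 in ventral wild type. Laterally it was 8.70 to 8.80 in arrays labelled knockout and 8.98 to 9.18 in wild type. Of 6 measured seminal vesicle genes 4 fell in the lateral lobe. Luminal genes passed in 0 of 7 cases in either lobe at a limma adjusted p under 0.05, with list means of 12.45 in each ventral knockout array and 12.35 to 12.43 in ventral wild type. Pbsn and Msmb, listed as lateral secretory genes, fell in ventral knockouts, as Slc30a2 did, by 1.28 and 0.86 (limma adjusted p at most 2.8e-05). Their mean level was 12.48 to 12.66 in ventral knockouts and 13.59 to 13.74 in ventral wild type, and neither passed by genotype laterally. In wild type these 2 genes hardly marked the lateral lobe after centring. Pbsn was 0.28 higher there (limma adjusted p = 0.012), and Msmb did not differ past the threshold (-0.15, 0.134). The part of stroma, basal epithelium, seminal vesicle and secretory cells in these results was not tested.

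For 7 of the 10 genes the lobes lay further apart than the genotypes did. For Slc39a7, Slc39a14 and Slc30a7 the widest difference of either kind, with lobes centred, was the ventral genotype difference of Slc30a7, 0.32. On values as deposited Slc39a7 was lower laterally by 0.54 in knockout-labelled samples. Values of the lobes were compared after each array was centred on its median gene. Before centring, lateral arrays lay lower over all genes by 0.43 in knockouts and by 0.35 in wild type. Each lobe appears to have been normalized on its own, so lobe and normalization run cannot be told apart. In wild type 3 genes were higher in the lateral lobe, 4 lower and 3 did not pass, where 59.4% of all genes passed (29.7% higher, 29.8% lower). In knockout-labelled samples 4 were higher and 4 lower, where 67.8% passed (39.5% higher, 28.3% lower), so the counts lie near those of all genes. On values as deposited, 2 of the 10 genes were higher and 6 lower in knockout-labelled samples, and 3 higher and 7 lower in wild type. On those values 2583 of all genes were higher and 9657 lower in knockout-labelled samples, against 7191 and 5146 after centring, and in wild type 2240 and 10144 against 5396 and 5416.

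Mt1 was higher in the lateral lobe by 1.22 ± 0.10 in knockout-labelled samples, and by 1.45 ± 0.10 in wild type, or 2.73-fold (SE; limma adjusted p = 2.60e-07 and 4.51e-08). Its dimmer probe set gave 1.43 in knockout-labelled samples and 2.19 in wild type, and signal near saturation in the brighter one was not tested. Mt2 was higher by 0.69 ± 0.12 in knockout-labelled samples and by 1.10 ± 0.12 in wild type (limma adjusted p = 2.28e-04 and 4.59e-06). Slc39a8 was higher by 1.31 ± 0.093 in knockout-labelled samples and by 1.29 ± 0.093 in wild type, or 2.45-fold (limma adjusted p = 5.08e-08 and 5.57e-08), and both of its probe sets passed. The lateral arrays lay above all ventral arrays of their genotype in each of these genes. Lateral and ventral arrays did not overlap for 8 of the 10 genes in knockout-labelled samples (69.2% of all genes) and for 9 of 10 in wild type (68.3%).

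By its brightest probe set Slc39a6 had the widest gap among the 10, lower in the lateral lobe by 2.19 ± 0.088 in knockout-labelled samples and by 1.81 ± 0.088 in wild type, or 3.50-fold (limma adjusted p = 1.68e-10 and 9.51e-10). The mean over its 4 probe sets gave -1.12 in knockout-labelled samples and -1.10 in wild type, less than the gap of Slc39a8 by the same reading (1.88 and 1.67). The dimmest Slc39a6 probe set went the other way, at 0.40 in knockout-labelled samples, where it passed (limma adjusted p = 0.00916), and at 0.17 in wild type (0.233). Slc30a4 was lower by 1.71 ± 0.10 in knockout-labelled samples and by 1.53 ± 0.10 in wild type (limma adjusted p = 8.61e-09 and 2.34e-08). Slc30a1 was lower by 1.67 ± 0.12 in knockout-labelled samples and by 0.89 ± 0.12 in wild type (limma adjusted p = 5.89e-08 and 2.49e-05), though its dimmer probe set did not pass in wild type (-0.078, limma adjusted p = 0.531) and the mean over both was -0.52 there. Slc39a1 was lower by 0.71 ± 0.10 in knockout-labelled samples and by 0.70 ± 0.10 in wild type (limma adjusted p = 4.27e-05 and 5.64e-05). These 7 genes kept their direction under each scaling tried. The Mt2 difference in knockout-labelled samples missed the threshold on values as deposited (0.26, limma adjusted p = 0.079).

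For Slc39a7, Slc39a14 and Slc30a7 the direction between the lobes was not settled. Slc39a7 gave -0.12 in knockout-labelled samples and -0.15 in wild type after centring, and 0.064 and 0.034 after quantile normalization. Slc30a7 passed as higher in the lateral lobe of knockout-labelled samples (0.29 ± 0.077; limma adjusted p = 0.00451), but on values as deposited it was at -0.14. Slc39a14 lay at -0.084 in knockout-labelled samples and -0.081 in wild type. On values as deposited it passed as lower in both, at -0.51 and -0.43 (limma adjusted p = 0.00277 and 0.00876). In wild type it stayed below 0 in every alternative. Its dimmer probe sets gave -0.47, -0.32 and 0.16 there (limma adjusted p = 0.00508, 0.0294 and 0.496). In knockout-labelled samples they gave -0.19, 0.072 and -0.047, none past the threshold.

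**Figure D4:**
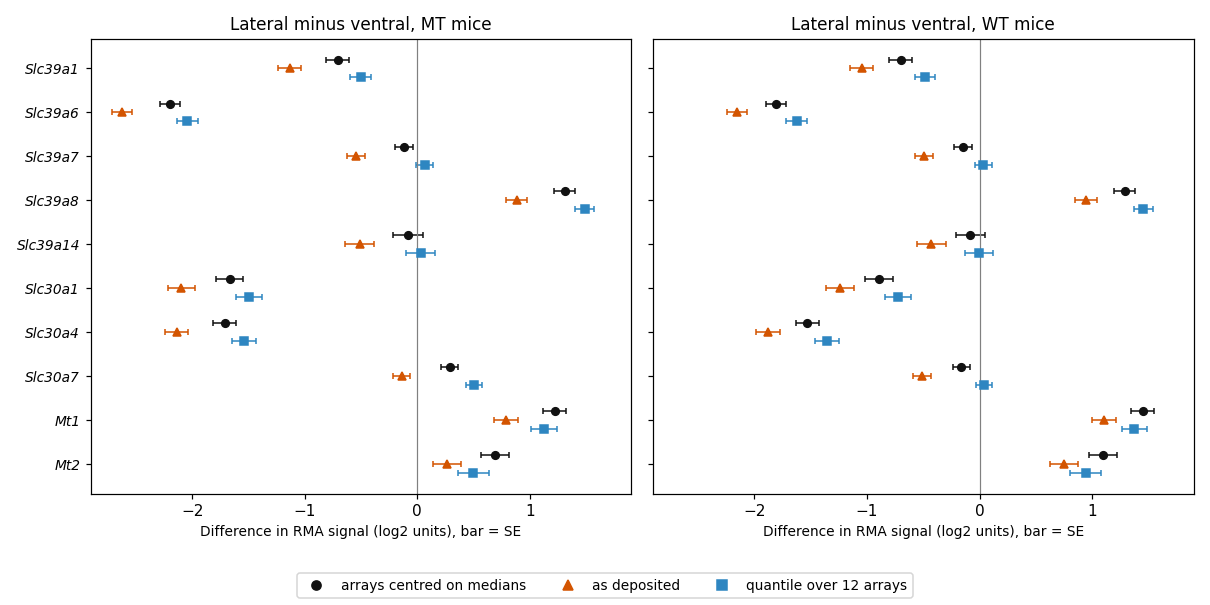
Lateral minus ventral difference (log2 units, bars are SE) of the 10 genes in knockout-labelled (MT) and wild-type (WT) samples, on arrays centred on their medians (circles), as deposited (triangles) and after quantile normalization over 12 arrays (squares). Slc39a6, Slc30a4, Slc30a1 and Slc39a1 lie below 0 and Slc39a8, Mt1 and Mt2 above 0 with each scaling. Slc39a7 and Slc30a7 change sign between scalings, as Slc39a14 does in knockout-labelled samples.

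On the centred scale the order of the 4 groups was wild-type lateral (6.46 units above the array median), lateral labelled knockout (6.43), ventral knockout (5.21) and ventral wild type (5.01) for Mt1. The order ran the other way by lobe for Slc30a1, with ventral knockout at 2.97, ventral wild type at 2.60, lateral wild type at 1.71 and lateral labelled knockout at 1.30. Neighbours of the same lobe did not differ past the threshold for either gene on this scale, where the ventral Slc30a1 difference was 0.37 (limma adjusted p = 0.0674).

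Among the 21 other zinc genes, 7 were higher in the lateral lobe of wild type and 7 lower, and in knockout-labelled samples 13 were higher and 5 lower, against 29.7% higher and 29.8% lower of all genes in wild type and 39.5% and 28.3% in knockout-labelled samples. On values as deposited 5 were higher and 8 lower in knockout-labelled samples, and 5 higher and 12 lower in wild type. Slc30a2 had the widest gap, higher in the lateral lobe by 4.05 ± 0.19 in knockout-labelled samples, or 16.5-fold, and by 2.46 ± 0.19 in wild type, or 5.51-fold (limma adjusted p = 6.77e-10 and 9.27e-08). Seminal vesicle genes were also higher in the lateral arrays, with 6 of 6 past the threshold in each genotype and medians of 4.43 in knockout-labelled samples and 7.44 in wild type, and their part in the lobe differences was not tested. Smooth muscle genes were higher there too, in 8 of 9 cases in knockout-labelled samples and 9 of 9 in wild type. Of 9 fibroblast genes 1 was higher and 6 lower in knockout-labelled samples, and 5 higher and 1 lower in wild type. Of 7 luminal genes 3 were higher and 4 lower in knockout-labelled samples, and 2 higher and 3 lower in wild type. Basal epithelial genes were higher in 4 of 4 cases in each genotype (medians of 0.88 in knockout-labelled samples and 1.46 in wild type). Leukocyte genes were lower in 5 of 7 cases in knockout-labelled samples and 6 of 7 in wild type (medians of -1.01 and -0.88). The part of these cell types was not tested either.

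The genes whose pattern over the 12 arrays was most like that of the 3 genes called by genotype, and of Mt1, which was not called, were found by Pearson correlation after the mean of each lobe was taken off. For Slc30a1 they were Kctd6 (r = 0.95), Tgfb3 (0.94) and Mier1 (0.93). Tgfb3 rose by 0.57 in ventral knockouts and fell by 0.40 in lateral arrays labelled knockout (limma adjusted p = 0.00492 and 0.0456). For Slc30a7 they were Ceacam2, Stmnd1 and Edem1 (r = 0.97 each), which fell in ventral knockouts (differences of -1.36, -1.42 and -0.40; limma adjusted p at most 0.00672). For Slc39a6 they were Fam76a (0.96), Ppil6 (0.95) and Plxdc2 (0.95), and for Mt1 Flii, Plaat3 and Trip6 (0.90 each). The arrays in these correlations share genotype groups, and a search over all genes yields high values by itself.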

How the data were processed

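The authors deposited 1 table of log2 signals for 12 arrays, made with RMA in Affymetrix Expression Console per the submitters' processing notes, a method that corrects background, quantile-normalizes and summarises probes. The spread of sorted values was 0.0493 among ventral and 0.0786 among lateral arrays but 0.388 over all, so each lobe appears to have been normalized on its own. No depth applies to arrays, and the 3 arrays of a group limit the precision.

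Of 45101 probe sets, 34958 had a single symbol in the platform annotation and gave 18194 genes, each read by its brightest probe set. Differences were fitted with limma 3.58.1 in R 4.3.3 (means of 4 groups, empirical Bayes), and p-values adjusted by Benjamini-Hochberg over all genes, with calls at 0.05. Lobes were compared after each array was centred on its median gene. The script was tested on simulated data. The main fit did not pair arrays by replicate number. After group means were taken off, 12 correlations of same-numbered arrays ran from -0.061 to 0.12. With 3 arrays a group, such values cannot exclude that same-numbered arrays of the lobes share a mouse. The genes named are the 10 chosen, the called genes of the zinc list and the 3 genes most alike in pattern to each of Slc39a6, Slc30a1, Slc30a7 and Mt1. The genes and lists were chosen with earlier results of these data known. Slc39a6 has no sequence printed.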

Additional observations from a re-analysis of the deposited data

Results flagged for a closer look

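The genotype effect differed between the lobes, lateral minus ventral, in 7 of the 31 zinc genes by the interaction test (limma, Benjamini-Hochberg adjusted over all genes), where 9.31% of all genes passed. Among the 10 genes described, it was -0.47 for Slc39a6 (adjusted p = 0.0348), -0.86 for Slc30a1 (0.00688) and 0.37 for Slc30a7 (0.0469). The calls of Slc39a6 and Slc30a7 passed in 5 and 4 of 20 alternatives. Among the other zinc genes it was -0.70 for Slc39a4 (limma adjusted p = 0.00392), -0.93 for Slc39a10 (0.00129), 1.50 for Slc30a2 (0.00273) and 1.79 for Slc30a10 (0.0086). Groups of 3 arrays were not searched for single outlying arrays.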

How the results depend on the processing

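Counts among the 10 genes rest on few calls and moved with most settings. In the ventral lobe, 2 were called, and 1 with quantile normalization, with arrays centred, with the replicate block or with every probe set tested, and 0 with the 6 ventral arrays alone or without both WT_VP replicate 3 and MT_LP replicate 3 (a setting chosen after seeing the data). In the lateral lobe, 1 was called, 2 without the dimmest 40% of genes or with a robust trended prior, and 0 with quantile normalization, centring, the 6 lateral arrays, the replicate block, the mean over probe sets, every probe set, or without both arrays. For the difference between the lobes, 3 were called, 2 with the replicate block, and 1 with the mean over probe sets, every probe set or without both arrays. The 6 arrays of a lobe give no value for it. Of the 21 other zinc genes, 3 were called in the ventral lobe, 1 without both arrays. In the lateral lobe 1 was called, 2 with quantile normalization, the 6 arrays, the dimmest genes left out or without both arrays, and 3 with the mean over probe sets. Over all genes, ventral calls were 965 with 6 arrays and 860 without both arrays, lateral calls 583 and interaction calls 973 without both arrays, and lobe calls without the dimmest genes 7484 in knockout-labelled samples and 6988 in wild type.

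Leaving out 1 array at a time gave 0 to 3, 0 to 2 and 1 to 2 calls among the 10 genes in the ventral lobe, the lateral lobe and the interaction, 8 to 9 and 7 to 7 between lobes in knockout-labelled samples and wild type, and 1 to 4, 1 to 3 and 4 to 4 of the 21. Over all genes it gave 941 to 1760 ventral (fewest without WT_VP replicate 3), 499 to 1168 lateral (fewest without WT_LP replicate 3), 1103 to 1732 interaction calls, and 11400 to 12293 and 9634 to 11295 lobe calls in knockout-labelled samples and wild type.

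Signs turned where values were near 0 and not called, except Slc30a7 between lobes in knockout-labelled samples (-0.14 as deposited). In the lateral lobe Slc30a7 gave -0.069 with the mean over probe sets and Mt1 0.0058 with quantile normalization. Between lobes, quantile normalization gave 0.064 for Slc39a7 and 0.028 for Slc39a14 in knockout-labelled samples, and 0.034 for Slc39a7 and 0.041 for Slc30a7 in wild type. For the interaction, quantile normalization gave 0.030 for Slc39a7, 0.031 for Slc39a8 and 0.030 for Slc39a14, centring 0.032 for Slc39a7 and 0.020 for Slc39a8, and the mean over probe sets 0.17 for Slc39a8 and 0.092 for Slc39a14. With 1 array, or both named arrays, left out, Slc30a4 ran from -0.13 to 0.0031 in the ventral lobe, Slc39a14 from -0.25 to 0.033 between lobes in knockout-labelled samples, and the interaction from -0.18 to 0.049 for Slc39a1, -0.096 to 0.0033 for Slc39a7, -0.13 to 0.012 for Slc39a8 and -0.25 to 0.023 for Slc39a14. The cause of these changes was not tested. Signal over background is not given by RMA values.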
